A study of Mus musculus with 9 samples.

Results

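A set of 10 genes of macrophages and other myeloid cells was followed in T-cell isolates of mouse bone marrow: Csf1r, Cd14, Cd68, Cd163, Arg1, Nos2, S100a8, Fcgr1, Fcgr3 and Fcer1g. They were chosen by name, with no measured value used, although earlier results of these data were known. Of the 10, 8 had a probe on the nCounter Immune Exhaustion panel, which holds 785 probes. No probe was matched to S100a8, a subunit of calprotectin in neutrophils, or to Fcgr3, a low affinity IgG receptor, and neither has a value here. The nCounter assay counts colour-coded probes bound to RNA, without amplification.

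RNA came from T-cells of the bone marrow of 9 female wild-type C57BL/6 mice at day 7, with 3 mice in each of 3 groups, and the labels give no ages. Mice without leukemia were the first group. Vehicle treated mice with leukemia, labelled as having had no treatment, and rIL-12 treated mice with leukemia had received BCR-ABL1+ Arf-/- B-ALL cells, which express luciferase and GFP, by vein without irradiation; rIL-12 was recombinant interleukin 12, given after engraftment. All leukemia came from a single cell line, a Pan-T-cell kit served to isolate the T-cells, and the purity of these isolates is not given in the sources used here. Total counts ran from 257613 to 711748 per mouse, and vehicle treated mouse 3 had the lowest. No probe had a count of 0. The probe for the glycoprotein of a virus (LCMV), which is no mouse gene, gave 53 to 114 counts per mouse and serves here as a reference for background.

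Macrophages and monocytes depend on signalling through the CSF1 receptor, clear debris in lysosomes rich in CD68, and bind antibody-coated targets through Fc receptors. The activating Fc receptors signal through the FcR gamma chain, encoded by Fcer1g, which mast cells, basophils and natural killer cells also use. Interferon gamma, which interleukin 12 induces in T-cells and natural killer cells, is a textbook inducer of Fcgr1 in macrophages. T-cells are not a usual source of Csf1r, Cd14, Cd163 or Fcgr1 transcripts.

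Transcripts of 5 of the 8 probed genes were counted above the viral probe in all 9 mice, in isolates labelled as T-cells: Csf1r, Cd68, Cd163, Fcgr1 and Fcer1g. The counts of Cd14, Arg1 and Nos2 were below the viral probe in every mouse. Together the 8 probes took 0.628% to 0.663% of all counts in mice without leukemia, 0.687% to 0.790% in vehicle treated mice and 0.601% to 0.838% in rIL-12 treated mice. The T-cell label also had its markers: the summed normalised count of 8 T-cell genes, among them Cd3d, Cd3e and Lck, was 4916 to 8036 in mice without leukemia, 3384 to 4781 in vehicle treated mice and 1686 to 3346 in rIL-12 treated mice. In bulk samples such as these, fewer cells of a type and less RNA per cell cannot be told apart. A normalised count is the count divided by the mouse's relative library size by the trimmed mean of M-values (TMM). The edgeR p-values set a difference against the spread between mice within groups. That spread is estimated from all 9 mice and is partly shared across probes.

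**Figure D1:**
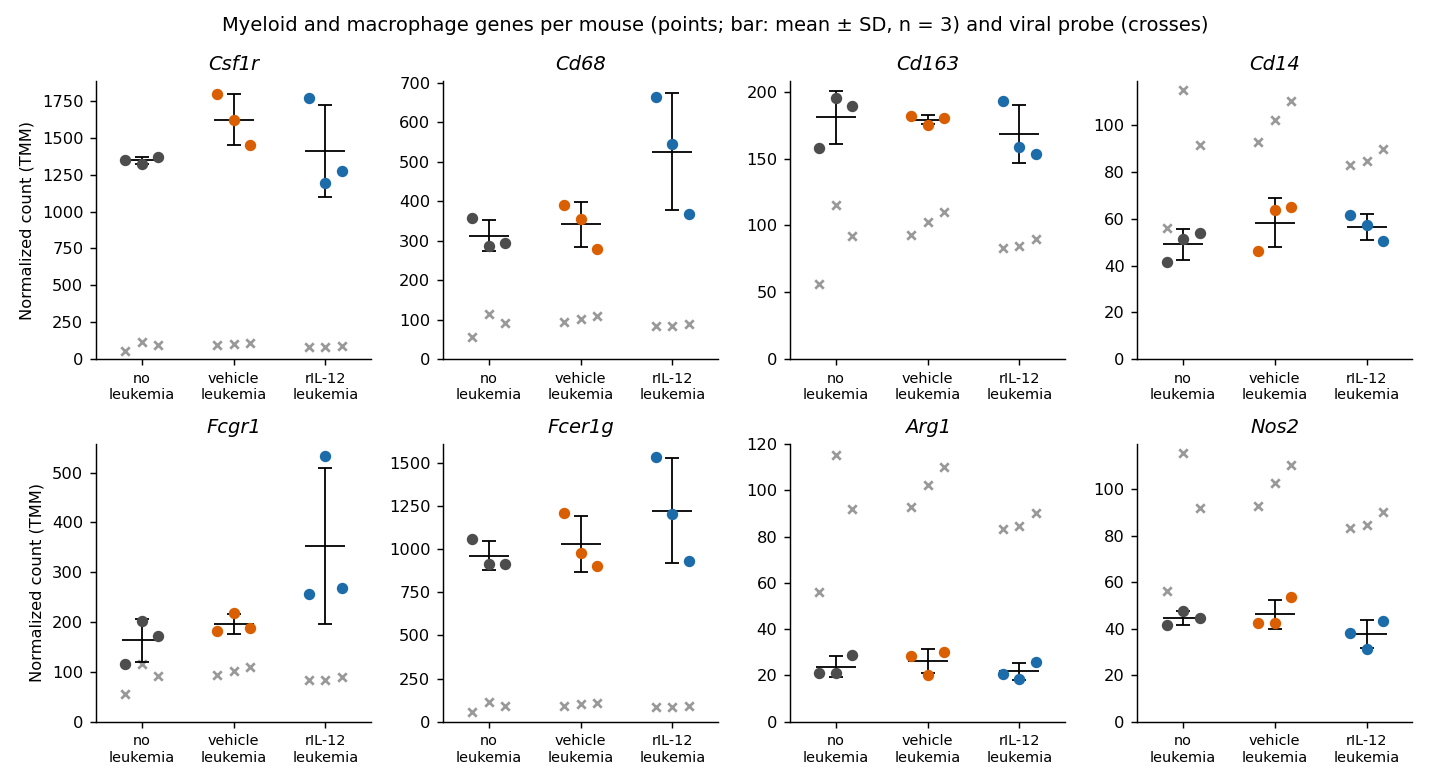
Normalised counts of the 8 probed genes and of the viral probe in each mouse, on linear axes of their own from 0, with points for mice, crosses for the viral probe and bars for the mean ± SD of each group of 3. Fcgr1 is higher in every rIL-12 treated mouse than in any other mouse, and Cd68 has its highest mean in that group but overlaps the vehicle treated mice. Cd14, Arg1 and Nos2 lie below the viral probe.

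Fcgr1 encodes the high affinity IgG receptor of monocytes and macrophages. Its counts were 109, 199 and 179 in mice 1 to 3 without leukemia, 181, 237 and 112 in vehicle treated mice, and 296, 663 and 259 in rIL-12 treated mice. After normalisation the rIL-12 treated mice, at 256 to 534, lay above all mice without leukemia, at 116 to 201, and above all vehicle treated mice, at 183 to 219. The latter groups overlapped, and rIL-12 treated mouse 2 stood well above the rest. Fcgr1 was not far above the viral probe of the same mouse outside the rIL-12 group. Its count was 1.746 to 2.057 times that probe in mice without leukemia, 1.697 to 2.135 times in vehicle treated mice and 2.977 to 6.314 times in rIL-12 treated mice. Mouse 1 without leukemia had the lowest count of both probes, 109 and 53. Fcgr1 rose in rIL-12 treated mice relative to mice without leukemia, by 1.11 ± 0.28 on the log2 scale (SE, n = 3 per group, edgeR adjusted p = 0.0157). Relative to vehicle treated mice the difference was 0.84 ± 0.28 on the log2 scale, with a 95% interval of 0.23 to 1.46, and did not pass after adjustment (edgeR adjusted p = 0.0586). That difference was 0.41 without rIL-12 treated mouse 2, and also 0.41 with scaling to housekeeping genes. The rise did not pass without rIL-12 treated mouse 2 (0.68, edgeR adjusted p = 0.0880) or without mouse 1 of the mice without leukemia (0.95, edgeR adjusted p = 0.0971), within a range of adjusted p from 0.00229 to 0.223 over all alternatives.

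Cd68 encodes a lysosomal glycoprotein abundant in macrophages. Counts were 337, 283 and 303 in mice without leukemia, 386, 384 and 167 in vehicle treated mice, and 766, 675 and 356 in rIL-12 treated mice. Normalised, the rIL-12 treated mice spanned 368 to 664, above the 286 to 358 of mice without leukemia. The vehicle treated mice, at 279 to 390, overlapped both other groups, and rIL-12 treated mouse 3 lay closest to them. Cd68 rose by 0.75 ± 0.22 on the log2 scale in rIL-12 treated mice relative to mice without leukemia (SE, n = 3 per group, edgeR adjusted p = 0.0302). Against vehicle treated mice the difference was 0.62 ± 0.22 on the log2 scale, with a 95% interval of 0.15 to 1.09 (edgeR adjusted p = 0.0668), and 0.19 with scaling to housekeeping genes. The rise did not pass without any 1 of the 3 mice without leukemia (0.69 to 0.89, edgeR adjusted p = 0.0633 to 0.106), without rIL-12 treated mouse 1 (0.55, edgeR adjusted p = 0.118) or without rIL-12 treated mouse 2 (0.72, edgeR adjusted p = 0.0928), and the adjusted p ranged from 0.00144 to 0.212 over all alternatives.

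Since these were the genes that passed the test, their promoter windows from RefSeq (GRCm38.p6) are shown, from 250 bases before to 50 after the start, 5′ to 3′ on the minus strand. Capitals mark matches, on either strand, to the gamma-activated site TTCNNNGAA, an interferon gamma response motif, and to GAGGAA, a core of the sites of the myeloid factor PU.1.
Fcgr1, chr3:96293920-96294219: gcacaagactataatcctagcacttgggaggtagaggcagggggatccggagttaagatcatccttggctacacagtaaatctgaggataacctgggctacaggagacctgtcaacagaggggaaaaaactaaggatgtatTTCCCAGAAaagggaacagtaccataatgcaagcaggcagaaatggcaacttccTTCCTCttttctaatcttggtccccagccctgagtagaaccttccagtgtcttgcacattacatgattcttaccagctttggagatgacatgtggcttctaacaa
Cd68, chr11:69666121-69666420: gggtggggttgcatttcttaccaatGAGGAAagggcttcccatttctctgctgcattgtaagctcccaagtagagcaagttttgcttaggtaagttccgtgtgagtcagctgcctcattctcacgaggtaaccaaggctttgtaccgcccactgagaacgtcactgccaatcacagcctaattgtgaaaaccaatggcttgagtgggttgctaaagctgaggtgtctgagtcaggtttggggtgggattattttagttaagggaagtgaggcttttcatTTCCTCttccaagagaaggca

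The Fcgr1 window held a gamma-activated site match at bases -109 to -101 relative to the start, and 8.29% of 32817 RefSeq windows of this length hold one. GAGGAA or its complement lay at bases -55 to -50 of Fcgr1, and at -225 to -220 and 29 to 34 of Cd68. Of all windows, 28.3% hold that motif. The windows of Fcer1g and Cd163 held neither motif. Those of Csf1r, Cd14, Arg1 and Nos2 were not searched, so called and uncalled genes cannot be compared by motif here. No binding was measured, so a match is a description of the sequence only.

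Fcer1g, the signalling chain that Fcgr1 needs at the cell surface, was the second most abundant of the probed genes by count, although counts of different probes also depend on the probes. Counts were 999, 902 and 948 in mice without leukemia, 1201, 1059 and 540 in vehicle treated mice, and 1774, 1494 and 898 in rIL-12 treated mice. The groups overlapped after normalisation, and rIL-12 treated mouse 1 was the highest of the 9. The rIL-12 treated mice differed from mice without leukemia by 0.35 on the log2 scale, with a 95% interval of -0.07 to 0.76 (edgeR adjusted p = 0.254), and from vehicle treated mice by 0.25, with an interval of -0.17 to 0.66 (edgeR adjusted p = 0.407). Vehicle treated mice differed from mice without leukemia by 0.10 (-0.32 to 0.52, edgeR adjusted p = 0.887).

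Csf1r, the receptor for the growth factor CSF1, had the highest counts of the 8 probes: 1274, 1308 and 1417 in mice without leukemia, 1782, 1759 and 868 in vehicle treated mice, and 2043, 1485 and 1230 in rIL-12 treated mice. Normalised, the vehicle treated mice, at 1450 to 1799, lay above the mice without leukemia, at 1323 to 1370. The rIL-12 treated mice, at 1196 to 1770, overlapped both. The difference between vehicle treated mice and mice without leukemia was 0.27 on the log2 scale, with a 95% interval of -0.10 to 0.64 (edgeR adjusted p = 0.554, exact two-sided permutation p = 0.1, the smallest that 3 against 3 mice allow). Csf1r differed by 0.07 (-0.30 to 0.44, edgeR adjusted p = 0.832) between rIL-12 treated mice and mice without leukemia, and by -0.20 (-0.57 to 0.17, edgeR adjusted p = 0.440) between rIL-12 and vehicle treated mice.

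Cd163, the scavenger receptor for haptoglobin-bound hemoglobin on tissue macrophages, had counts of 149, 193 and 196 in mice without leukemia, 180, 190 and 108 in vehicle treated mice, and 223, 197 and 148 in rIL-12 treated mice. All groups overlapped after normalisation, with means of 181, 179 and 168 in the same order, and the differences between them were under the SD of the rIL-12 treated mice, 21.7 (n = 3). On the log2 scale, vehicle treated mice differed from mice without leukemia by -0.01 (95% interval -0.38 to 0.35), and rIL-12 treated mice by -0.10 (-0.46 to 0.26) from mice without leukemia and by -0.09 (-0.45 to 0.27) from vehicle treated mice. Cd163 was only 1.693 to 2.811, 1.636 to 1.957 and 1.701 to 2.323 times the viral probe in the same order of groups, so part of each count may be background. With the viral probe subtracted, these differences were -0.27, -0.21 and 0.06, with no test.

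The remaining probes gave only values below the viral probe. Cd14, the co-receptor for bacterial lipopolysaccharide on monocytes, had 39 to 56 counts in mice without leukemia, 39 to 69 in vehicle treated mice and 49 to 71 in rIL-12 treated mice. Nos2, the inducible nitric oxide synthase of activated macrophages, had 39 to 47, 32 to 46 and 39 to 44 counts in the same order of groups. Arg1, the arginase of alternatively activated macrophages, had 20 to 30, 18 to 28 and 23 to 25. All groups overlapped for Arg1, Cd14 and Nos2 after normalisation, and the viral probe gave more counts than any of them in each mouse. Differences in these genes were not detectable at this level, and the 95% intervals in all comparisons lay between -0.85 and 0.71 on the log2 scale.

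Across the 8 genes, vehicle treated mice and mice without leukemia differed in 0 by edgeR, where a call needs an adjusted p under 0.05 and a change of at least 1.5-fold. DESeq2 also called 0, and 0 had an unadjusted edgeR p under 0.05. Of all 785 probes, 2.68% were called in that comparison. The groups did not overlap for 1 of the 8, Csf1r, against 22.5% of all probes. The median difference of the 8 was 0.12 on the log2 scale, beside 0.05 over all probes.

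In rIL-12 treated mice relative to mice without leukemia, edgeR called 2 of the 8, Fcgr1 and Cd68, both higher. Of all probes, 17.6% were called and 8.92% were called higher, and 2 of 8 can be read only beside these shares. The groups did not overlap for the same genes, while 35.5% of all probes did not overlap. The median of the 8 was 0.13, beside 0.02 over all probes.

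Between rIL-12 and vehicle treated mice, edgeR called 0 of the 8, against 13.8% of all probes. Fcgr1 and Cd68 had an unadjusted edgeR p under 0.05, at 0.0106 and 0.0138. DESeq2 called both, with log2 differences of 0.88 and 0.65. The groups did not overlap for Fcgr1 alone, against 30.7% of all probes, and the median of the 8 was -0.06, beside -0.08. Both rIL-12 comparisons share the rIL-12 treated mice, and both leukemia comparisons share the mice without leukemia.

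**Figure D2:**
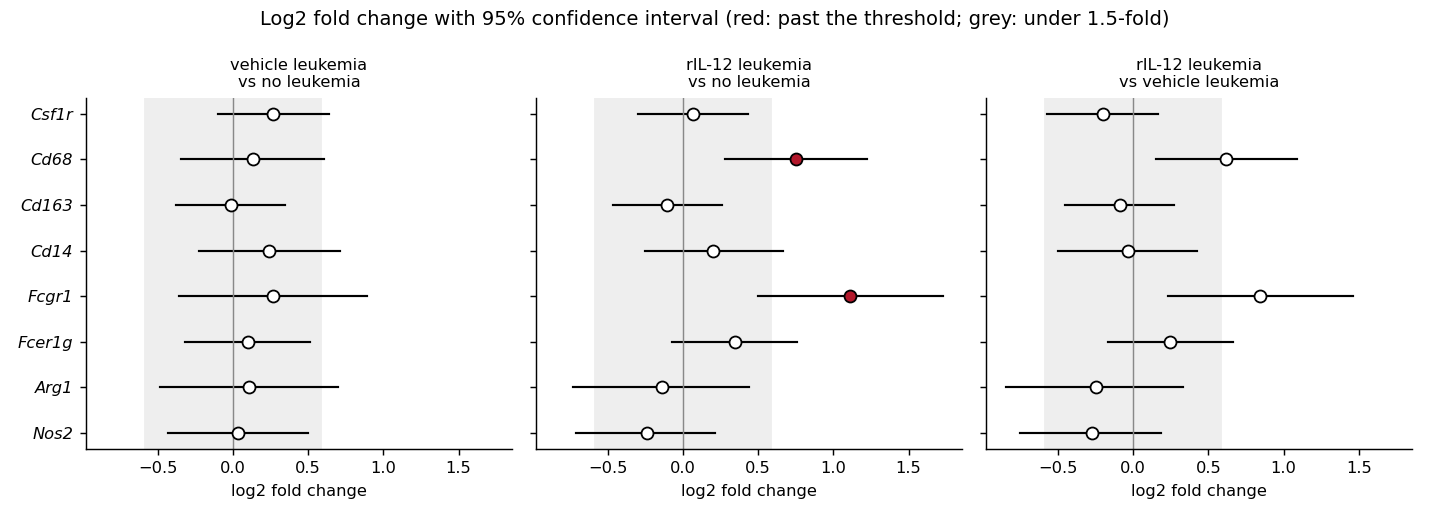
Log2 differences of the 8 probed genes with their 95% intervals, on the x axis, in each of the 3 comparisons, with called genes in red and grey for changes under 1.5-fold. The intervals of Fcgr1 and Cd68 lie above 0 in both rIL-12 comparisons, but only against mice without leukemia did these genes pass after adjustment.

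Because scaling shifts all genes of a panel at once, the differences between rIL-12 treated mice and mice without leukemia were also set against the median of all probes. Of the 10 housekeeping genes, 2 were themselves called higher there, Ubb and Sdha. Scaling to these 10 moved that median from 0.02 to -0.28 on the log2 scale, and total count scaling moved it to -0.15. The calls split into 70 higher and 68 lower with TMM, into 21 and 97 with the housekeeping genes, and into 37 and 83 with total counts. Fcgr1 lay above the median of all probes by 1.08 with TMM, by 1.05 with the housekeeping genes and by 1.06 with total counts. Cd68 lay above it by 0.73, 0.70 and 0.72. Each scaling shifts all probes nearly alike, so near equal distances were bound to follow and are no check of the calls. Neither Fcgr1 (0.77, edgeR adjusted p = 0.0892) nor Cd68 (0.42, edgeR adjusted p = 0.123) passed with housekeeping scaling as such, and with total count scaling Cd68 did not (0.57, edgeR adjusted p = 0.0692).

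**Figure D3:**
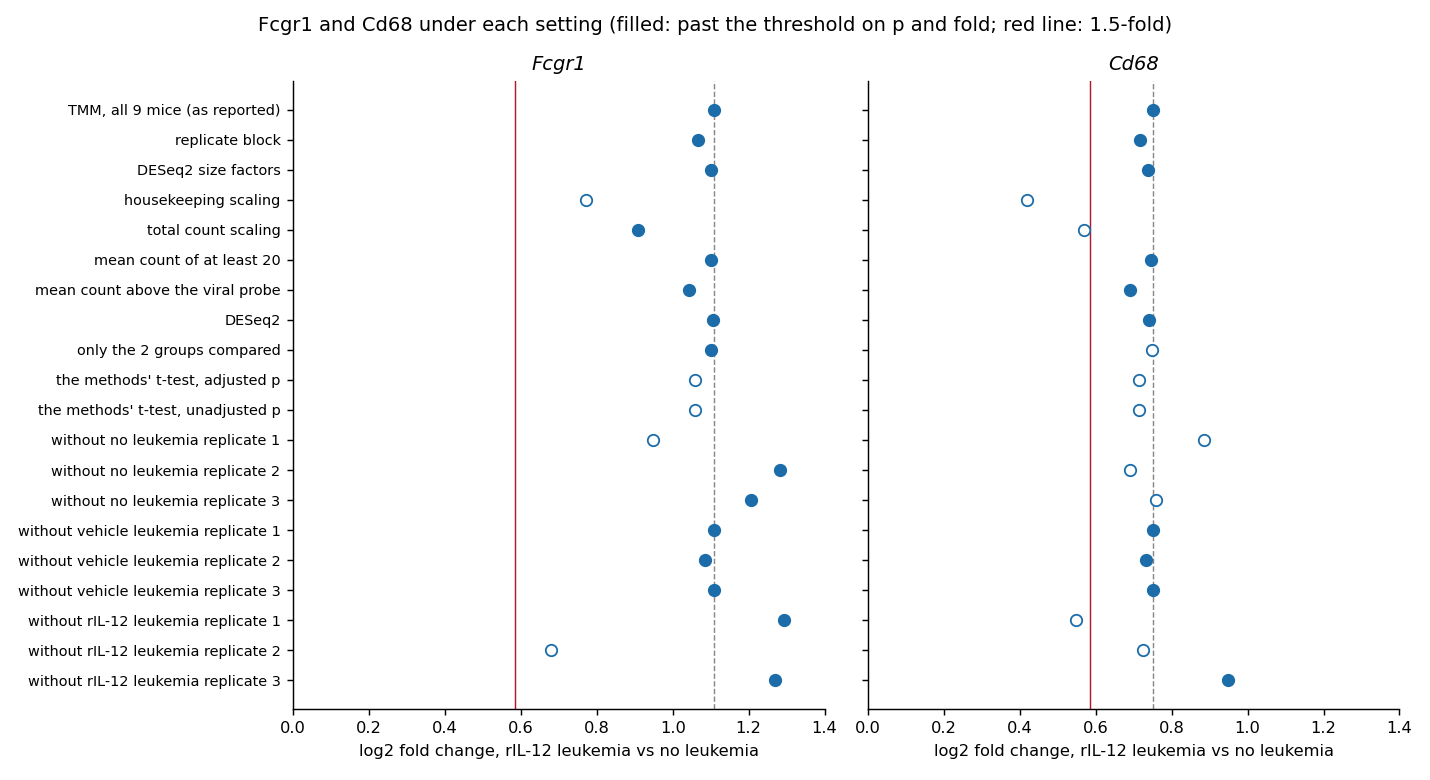
Log2 differences of Fcgr1 and Cd68 in rIL-12 treated mice relative to mice without leukemia (x axis) under each processing alternative, filled where past the thresholds on p and fold, with a dashed line at the reported value and a red line at 1.5-fold. All values are above 0, and of the 10 open points of Cd68, 5 come from leaving out a mouse.

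Ratios within a mouse need no scaling between mice. Per 100 counts of Csf1r, Cd68 had 26.5, 21.6 and 21.4 counts in mice without leukemia, 21.7, 21.8 and 19.2 in vehicle treated mice, and 37.5, 45.5 and 28.9 in rIL-12 treated mice. Every rIL-12 treated mouse was above every other mouse. The share of all probes whose ratio to Csf1r separates in this way was not computed. By normalised counts, 35.5% of all probes did not overlap between rIL-12 treated mice and mice without leukemia, and 30.7% between rIL-12 and vehicle treated mice. Fcgr1 had 8.56, 15.2 and 12.6, then 10.2, 13.5 and 12.9, and then 14.5, 44.6 and 21.1 counts per 100 of Csf1r. Mouse 2 without leukemia exceeded rIL-12 treated mouse 1, so these groups overlapped. The ratio of Fcer1g to Csf1r was 66.9 to 78.4 in mice without leukemia, 60.2 to 67.4 in vehicle treated mice and 73.0 to 101 in rIL-12 treated mice. The Cd163 ratio overlapped among all groups, at 10.1 to 14.8 over the 9 mice. These ratios show unequal levels, not that Csf1r itself was constant.

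**Figure D4:**
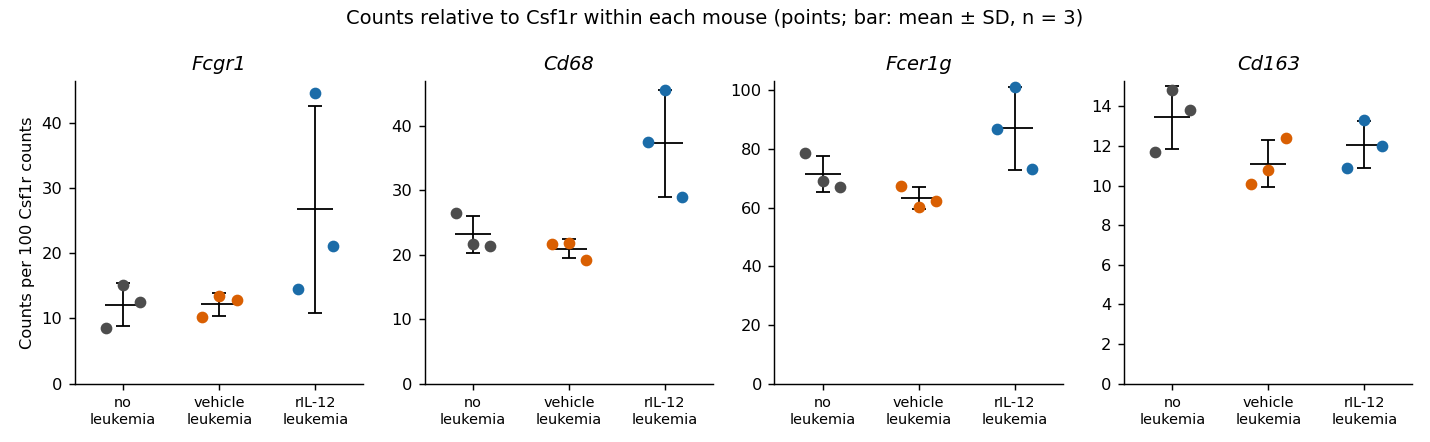
Counts of Fcgr1, Cd68, Fcer1g and Cd163 per 100 counts of Csf1r in the same mouse, 1 point per mouse, with the mean ± SD of each group of 3. The rIL-12 treated mice are the 3 highest for Cd68, at 28.9 to 45.5, whereas Cd163 overlaps among the groups.

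The mouse with the highest Fcgr1 also had the highest counts of interferon-related genes. In rIL-12 treated mice 1 to 3, Ifng, which encodes interferon gamma, had 172, 606 and 294 counts, against 88 to 136 in mice without leukemia and 95 to 189 in vehicle treated mice. Gbp2, an interferon-induced GTPase, had 563, 7604 and 2954 counts, against 126 to 154 and 139 to 761 in the same order. Cxcl9, an interferon-induced chemokine of macrophages, had 492, 1705 and 350, against 91 to 138 and 87 to 270. After normalisation the rIL-12 treated mice overlapped the vehicle treated mice for Ifng and Gbp2 but not for Cxcl9, and overlapped the mice without leukemia for none of these genes. Of 14 probed genes on a list of macrophage activation by interferon gamma, 6 rose in rIL-12 treated mice relative to mice without leukemia and 0 fell (median 0.17 on the log2 scale), where 8.92% of all probes were called higher. Gbp2 and Cxcl9 were among the 6 that rose. Ifng, also among the 6, did not pass with housekeeping scaling, without rIL-12 treated mouse 2 (0.92, edgeR adjusted p = 0.0639) or without mouse 1 of the mice without leukemia (1.27, edgeR adjusted p = 0.0809). The part of these genes in the Fcgr1 result was not tested. By the root mean square difference of centred log2 values over 9 mice, the probes most like Fcgr1 were Oas1a, at 0.22, and Ifng, at 0.26, where the value of Fcgr1 itself was 0.56. Those most like Cd68 were Cd180 and Vav3, both at 0.13, beside 0.40 for Cd68. For the other probed genes the pattern was flat, with a value of the gene itself of 0.12 to 0.25.

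Of 12 other genes of the Fc receptor pathway with a probe, 2 rose and 1 fell in rIL-12 treated mice relative to mice without leukemia (median 0.29 on the log2 scale), where 17.6% of all probes were called and 8.92% were called higher. Fcgr4, another activating IgG receptor that pairs with the FcR gamma chain, had 42, 41 and 46 counts in mice without leukemia, 47, 66 and 42 in vehicle treated mice, and 84, 301 and 91 in rIL-12 treated mice. It rose by 1.64 on the log2 scale (edgeR adjusted p = 0.00896) against mice without leukemia, but all 3 of those mice had fewer counts than any mouse had for the viral probe. The counts of rIL-12 treated mice 1 and 3 were near those of the viral probe, 96 and 87, and mouse 2 alone was clearly above its own, 105. Normalised, Fcgr4 in rIL-12 treated mice 1 and 3, at 72.76 and 94.15, still lay above the 41.47 to 44.58 of mice without leukemia. The difference was 0.92 without rIL-12 treated mouse 2, and did not pass without mouse 1 of the mice without leukemia (1.69, edgeR adjusted p = 0.0560). Ms4a2, the beta chain of the high affinity IgE receptor of mast cells and basophils, rose by 0.89 (edgeR adjusted p = 0.00629), but did not pass with housekeeping scaling (0.57, edgeR adjusted p = 0.0551). Pik3cd, a lymphocyte lipid kinase subunit, fell by 0.89 (edgeR adjusted p = 0.00629). Ms4a2 also rose in vehicle treated mice against mice without leukemia, the only 1 of the 12 called there, where 2.68% of all probes were, though not after dropping vehicle treated mouse 3, or mouse 1 or 3 from the group without leukemia.

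Of 18 other myeloid genes with a probe, 2 rose and 0 fell in rIL-12 treated mice relative to mice without leukemia, with a median of 0.20, where 8.92% of all probes were called higher. Ccr1, a chemokine receptor, had 67, 57 and 60 counts in mice without leukemia and 166, 162 and 76 in rIL-12 treated mice (0.91 on the log2 scale, edgeR adjusted p = 0.0157). Cd80, a ligand of CD28, had 47, 56 and 58 counts, and 123, 131 and 66 (0.78, edgeR adjusted p = 0.0206). The mice without leukemia were near or below the viral probe for both, and rIL-12 treated mouse 3 was below its own viral probe count of 87 for both. These differences thus rest in part on counts at the level of the viral probe in both groups. Neither passed with housekeeping or total count scaling, without rIL-12 treated mouse 1 or mouse 2, or after dropping mouse 2 or 3 from the group without leukemia, and Cd80 also not after dropping mouse 1 from it (Ccr1 0.58 to 0.92, edgeR adjusted p = 0.0586 to 0.0869; Cd80 0.45 to 0.85, edgeR adjusted p = 0.0514 to 0.156). On the lists of CSF1 receptor signalling and alternative macrophage activation, 1 of 10 and 2 of 10 probed genes rose in that comparison, and 0 fell, beside the 8.92% of all probes called higher. The 18 other myeloid genes all lay above 0 in vehicle treated mice against mice without leukemia, with a median of 0.25 and 0 called. Between rIL-12 and vehicle treated mice, 4 of the 18 lay above 0 (median -0.11). There 1 was called, Itgax, lower, where 13.8% of all probes were called, and it did not pass under 12 of 18 alternatives.

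**Figure D5:**
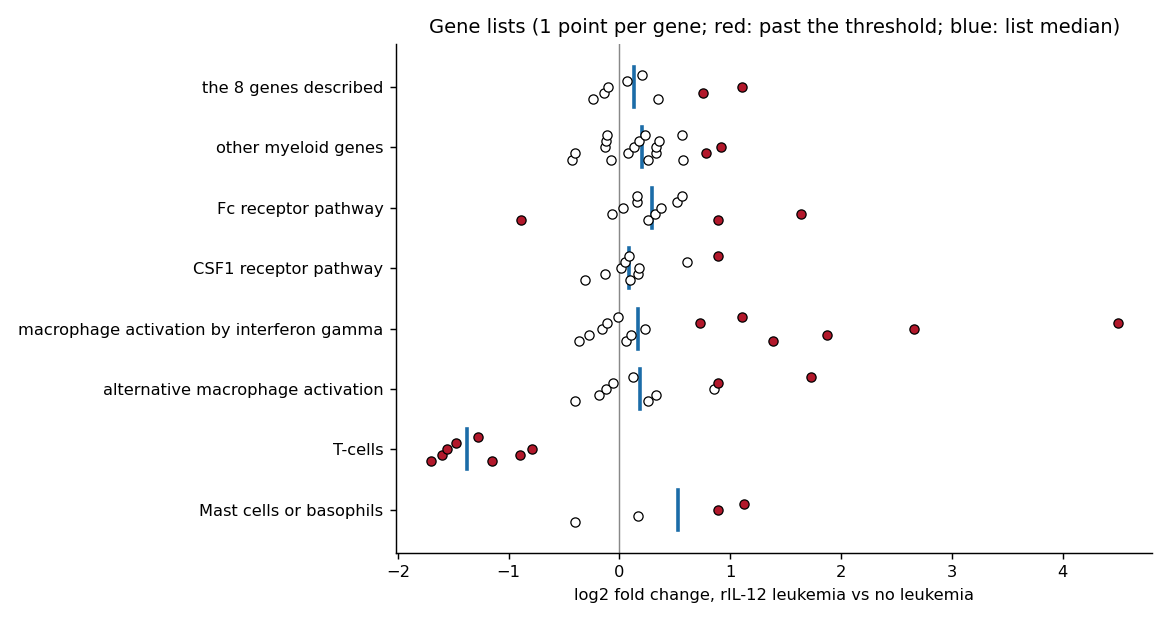
Log2 differences (x axis) between rIL-12 treated mice and mice without leukemia for the 8 genes, 5 lists of related genes and the T-cell and mast cell or basophil markers, 1 point per gene, red where called, with a blue bar at the list's median; a gene on several lists is drawn in each. The 8 T-cell genes all lie below 0.

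Markers of other cells moved with the comparisons too. All 8 probed T-cell genes fell in rIL-12 treated mice relative to mice without leukemia, with a median of -1.37, where Fcgr1 and Cd68 rose. Of all 785 probes, 17.6% were called there, and 68 probes were called lower. Cd28 and Zap70 were close to the threshold, with edgeR adjusted p = 0.0480 and 0.0438. Cpa3 and Ms4a2, of 4 probed mast cell or basophil genes, rose in both comparisons with mice without leukemia (with the exceptions given above for Ms4a2, those in vehicle treated mice holding for Cpa3 too), and the summed normalised count of these genes was 988 to 1133 in mice without leukemia, 1820 to 2154 in vehicle treated mice and 1882 to 2148 in rIL-12 treated mice. Siglech, a gene of plasmacytoid dendritic cells, fell by 0.96 in rIL-12 treated mice relative to mice without leukemia. Of the natural killer cell genes, Klrk1 rose and Klrd1 fell there, Klrk1 not without mouse 1 of the mice without leukemia. The neutrophil list had a single probe, Csf3r, which was not called, and the erythroid list had 0. The part of these markers in the Fcgr1 and Cd68 results was not tested.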

How the data were processed

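Bone marrow T-cells of 9 mice were measured with an nCounter panel, and the authors deposited the counts per probe as raw whole numbers in 785 probes; the normalisation of the methods (nSolver) is not in these counts. The genome build is not given in the sources used here. Of the probes, 751 were matched to a symbol in RefSeq and 34 were not. Members, lists and alternatives were chosen with earlier results of these data known. Groups came from the labels. Main tests used edgeR 4.0.16 in R 4.3.3 (quasi-likelihood, TMM, all 9 mice in a fit with group only, prior count 1), with Benjamini-Hochberg adjustment over 785 probes; calls needed an adjusted p under 0.05 and a 1.5-fold change. Alternatives included DESeq2 1.42.0, other scalings, a count filter of 20, the methods' t-test on log2 of normalised counts with a pseudocount of 1, and leaving out each mouse. Exact permutation tests used scipy 1.17.1 in Python 3.11.15, and figures matplotlib 3.10.9. Tested on simulated data, 100% of 200 genes changed 4-fold were recovered in each comparison. The changes of Fcgr1 and Cd68 were smaller, and recovery at their size was not tested. Same-numbered vehicle treated mice and mice without leukemia deviated together, though weakly (r = 0.113 to 0.260). Of these 6 mice, 4 were closest to their own number. The rule used here counts this as pairing, but the sources give no pairs and the main tests used none. Named genes were the members, at most 3 called genes of each list in each direction, and the 2 probes nearest to each gene in pattern. Some genes of the lists are not reported here.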

Additional observations from a re-analysis of the deposited data

How the results depend on the processing

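Fcgr1 and Cd68 kept their direction in rIL-12 treated mice relative to mice without leukemia under all alternatives, and the number called was 2 of 8. It was 0 with housekeeping scaling, 1 with total count scaling, 1 with only the 2 groups compared, 0 with the methods' t-test whether adjusted or not, and 0 to 2 leaving out each mouse. Between rIL-12 and vehicle treated mice it was 0, but 2 with the replicate block, 2 with DESeq2, 1 with housekeeping scaling (Csf1r, -0.61) and 0 to 2 leaving out each mouse. The mice of these groups share only a number (pair correlations of 0.0179 to 0.335), and the block changed no other call among the 8 genes. With vehicle treated mice against mice without leukemia 0 were called under all alternatives. Viral probe subtraction was chosen after seeing the data and gave 1.69 for Fcgr1 and 0.95 for Cd68, relative to mice without leukemia, with no test.

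Differences near 0 changed sign. In vehicle treated mice against mice without leukemia, Cd163 was 0.085 with housekeeping scaling, 0.017 without probes at the viral probe's level and -0.15 to 0.043 leaving out each mouse. Arg1 was -0.019 to 0.29, Fcer1g -0.034 to 0.19 and Nos2 -0.067 to 0.10 leaving out each mouse, and Nos2 was -0.011 with DESeq2 and -0.0091 with its size factors. In rIL-12 treated mice against mice without leukemia, Csf1r was -0.24 with housekeeping scaling, -0.11 with total count scaling and -0.13 to 0.17 leaving out each mouse, Cd14 was -0.11 with housekeeping scaling, and Arg1 was -0.27 to 0.063 leaving out each mouse. Between rIL-12 and vehicle treated mice, Cd14 was 0.034 with only the 2 groups compared and -0.18 to 0.035 leaving out each mouse, Fcer1g was -0.18 with housekeeping scaling, and Cd163 was 0.060 after viral probe subtraction. The causes were not tested.

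Probes called over all genes ranged from 0 to 63, from 0 to 194 and from 0 to 230 in the 3 comparisons, where the reported counts were 21, 138 and 108. Between rIL-12 and vehicle treated mice 0 were called without vehicle treated mouse 2 or without rIL-12 treated mouse 2. Counts below the viral probe limit what can be seen for Cd14, Arg1 and Nos2. Counts not far above it limit Cd163 in all groups, and Fcgr1 in mice without leukemia and vehicle treated mice.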
